A study of Homo sapiens with 24 samples.

Results

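The mitotic kinesins described here were KIF11, KIF2C, KIF4A, KIF14, KIF15, KIF18A, KIF20A, KIF22, KIF23 and KIFC1, taken by gene name from the gene spots of Agilent 2-colour arrays. They are 10 of the 30982 gene names on the array and were read by 11 probes, 2 for KIF11 and 1 for each of the others. All 10 had a probe that passed the filter on dim spots, as did 22812 gene names in all, and the rule used no measured value. The RNA came from U87 MG, an established human glioblastoma cell line, collected 24 h after proton therapy (PT). In the configurations U87 2 Gy and U87 10 Gy, cells irradiated with 2 or 10 Gy were compared with untreated cells. In the configuration U87 Si306 + 2 Gy, and likewise in U87 Si306 + 10 Gy, cells given 10 µM Si306, a small inhibitor of the kinase SRC, and the same PT dose were compared with cells given that dose alone, so both sides of these configurations had been irradiated. No configuration compared Si306 alone with untreated cells. On every array the treated RNA carried the dye Cy5 and its control Cy3, without a dye swap, so that a dye effect of a probe and a treatment effect cannot be told apart within an array.

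Kinesins are motor proteins that use ATP to walk along microtubules or to take their ends apart. In mitosis they separate the spindle poles, move and align chromosomes, and build the central spindle on which the cell divides. Many of their genes are transcribed mainly from G2 to mitosis, and in other phases of the cycle they are repressed through a promoter element, the cell cycle genes homology region (CHR), often with CCAAT boxes for the factor NF-Y beside it.

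The 60-base probes of 5 kinesins are given first, because a log2 ratio below is the ratio of the dyes at exactly these sequences. The build of the array's coordinates is hg17. The KIF20A probe lies at chr5:137549980-137550703, the KIF18A probe at chr11:28001918-28013513 and the KIFC1 probe at chr6:33482406-33482599, and each spans more than its 60 bases there, so it joins exons across an intron. The KIF22 probe also joins exons, at chr16_random:102662-103469, on sequence that this build had not placed on the chromosome. The KIF11 probe shown, at chr10:94403444-94403503, is the one of its pair that gave the smaller changes. The other KIF11 probe lies at chr10:94404607-94404666 and stood for the gene, because its mean intensity over all 8 arrays was higher; on the 4 PT arrays alone the probe shown was higher. KIF18A is transcribed from the minus strand and the other genes of these probes from the plus strand.
KIF20A A_23_P256956: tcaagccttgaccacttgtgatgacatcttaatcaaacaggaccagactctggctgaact
KIF18A A_23_P150667: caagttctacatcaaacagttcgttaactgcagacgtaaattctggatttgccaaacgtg
KIFC1 A_23_P133956: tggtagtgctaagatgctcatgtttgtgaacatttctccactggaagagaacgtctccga
KIF22 A_23_P54622: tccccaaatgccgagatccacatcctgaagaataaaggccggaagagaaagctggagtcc
KIF11 A_23_P52278: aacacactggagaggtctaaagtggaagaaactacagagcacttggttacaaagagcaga

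The promoters were read for the same reason, since a shared element is what these genes are known for. Promoter windows of RefSeq (GRCh38.p14), each from 250 bases before to 50 after a gene's start, were searched on both strands for the CHR (TTTGAA or TTCGAA), the CCAAT box (CCAAT) and an E2F site (TTTCGCGC or TTTGGCGC). None of these words is contained in another, and TTCGAA reads the same on both strands. A CHR was found for 8 of the 10 kinesins, all but KIF20A and KIF2C, and in 16.4% of all 34943 promoters. A CCAAT box was found for 8 of 10, all but KIF15 and KIF2C, and in 34.6% of all promoters, and the E2F letters for KIF15 alone and in 1.14% of all. KIF2C held none of the 3 motifs in this window. Below are the windows from 130 bases before to 20 after the start for the pair of genes with the lowest log2 ratios after PT (KIF20A and KIF23), the one that was higher (KIF22), and KIF18A. They lie at chr5:138178982-138179131, chr15:69414219-69414368, chr16:29790621-29790770 and, on the minus strand, chr11:28108137-28108286. Capitals mark the CCAAT box (ATTGG on the opposite strand) and the CHR (TTTGAA or TTCGAA, the former read as TTCAAA on the opposite strand).
KIF20A: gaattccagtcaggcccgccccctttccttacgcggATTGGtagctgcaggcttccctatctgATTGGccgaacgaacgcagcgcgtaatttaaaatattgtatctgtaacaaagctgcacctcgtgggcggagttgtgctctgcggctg
KIF23: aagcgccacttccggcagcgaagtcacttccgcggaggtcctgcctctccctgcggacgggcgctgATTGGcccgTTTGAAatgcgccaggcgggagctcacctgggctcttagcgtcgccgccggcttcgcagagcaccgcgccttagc
KIF22: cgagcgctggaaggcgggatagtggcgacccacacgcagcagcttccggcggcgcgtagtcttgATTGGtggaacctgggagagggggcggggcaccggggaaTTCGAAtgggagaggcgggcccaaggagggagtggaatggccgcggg
KIF18A: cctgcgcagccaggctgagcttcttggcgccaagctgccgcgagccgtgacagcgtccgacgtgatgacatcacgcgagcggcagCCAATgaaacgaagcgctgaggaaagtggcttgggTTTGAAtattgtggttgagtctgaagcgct
KIF20A held 2 CCAAT boxes, whose first bases lie at -94 and -67 from the start, and no CHR of these letters. In KIF23 a CHR at -55 stood close behind a CCAAT box at -64, and in KIF18A they lay at -10 and -45. KIF22, whose log2 ratio went the other way, also held both, at -27 and -66. A match is a description of the letters and not of a bound site.

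The 24 deposited scans were labelled as 6 biological replicates of each configuration, while their headers name 8 arrays on 2 slides, each scanned 3 times. The scan labelled U87 2 Gy replicate 5 came from array 2 of U87 10 Gy by its header, and the scan labelled U87 10 Gy replicate 2 from array 2 of U87 2 Gy. Both scans were left out, and the remaining scans of an array were averaged, which gave 2 arrays for each configuration. Nothing settles whether these are separate cultures, so p-values measure only the spread between arrays. With 2 arrays a configuration, precision is limited by their number.

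The PT configurations lay on slide 1 and the Si306 configurations on slide 2, and the RNA on the slides was not alike. RNA labelled U87 2 Gy was hybridized on both, with Cy5 on slide 1 and Cy3 on slide 2. Over 18864 probes, its log2 signals correlated at r = 0.855 to 0.860 between the slides (4 pairs of arrays), those of U87 10 Gy RNA at 0.855 to 0.858, while treated and control RNA of one array correlated at 0.986 to 0.990. The same dye, Cy3, gave 0.872 to 0.877 between the slides (16 pairs). These are correlations across probes, which share a dye, a background and a slide. CHI3L1, a marker of mesenchymal glioblastoma, had a Cy3 signal over background of 2759 to 4278 on the 4 arrays of slide 1 and of 19.4 to 38.4 on slide 2, where it was well above background on 0 of 4 arrays. CD44, VIM, NES and FN1 were well above background on all arrays, so that 5 of 5 markers of a mesenchymal glioblastoma line were detected throughout slide 1 and 4 of 5 throughout slide 2. Of the 5 glial and neural stem markers, GFAP was detected in Cy3 on all arrays, SOX2 on those of slide 2 alone (27.3-36.7 against 204-237), OLIG2 on 3 arrays of slide 1 and none of slide 2, and S100B and AQP4 on none. Of the neuronal markers, SYT1 was detected on all arrays and SNAP25 on those of slide 1 alone. Of the endothelial pair, PECAM1 went from 31.2-33.7 on slide 1 to 292-347 on slide 2, while CDH5 was on 0 arrays of either slide in Cy3 and in Cy5 on 3 of slide 1. Of the 3 epithelial markers, EPCAM went from 19.4-47.8 to 985-1223, while CDH1 and KRT5 were well above background on 0 arrays. Of the 4 leukocyte markers none was detected throughout either slide in Cy3, and PTPRC was on 0 arrays. The labels give U87 MG for both slides, the cause of this difference was not tested, and slide and configuration cannot be told apart. Each ratio compares 2 RNAs on one array. Fitting each slide alone left the number of kinesins called and the median of every comparison as given below.

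The kinesins themselves also differed between the slides. After quantile scaling of the intensities, 7 of the 10 were brighter on every array of slide 2 than on any of slide 1, as were 37.0% of all tested names, while 42.4% were dimmer on every array. KIFC1 differed the most, by 5.94-fold, followed by KIF15 (3.57-fold), KIF11 (3.15-fold), KIF4A (2.67-fold), KIF2C (2.65-fold), KIF20A (2.62-fold) and KIF23 (1.63-fold). For KIF2C slide 1 gave a value on 2 of its 4 arrays. KIF14, KIF18A and KIF22 overlapped between the slides, with ratios of 1.03, 0.943 and 1.01. In Cy3, the KIFC1 signal over background was 110, 79.8, 113 and 91.5 on slide 1 and 613, 542, 551 and 550 on slide 2. Of all tested names, 6116 (26.8%) differed by at least 2-fold between the slides.

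**Figure D1:**
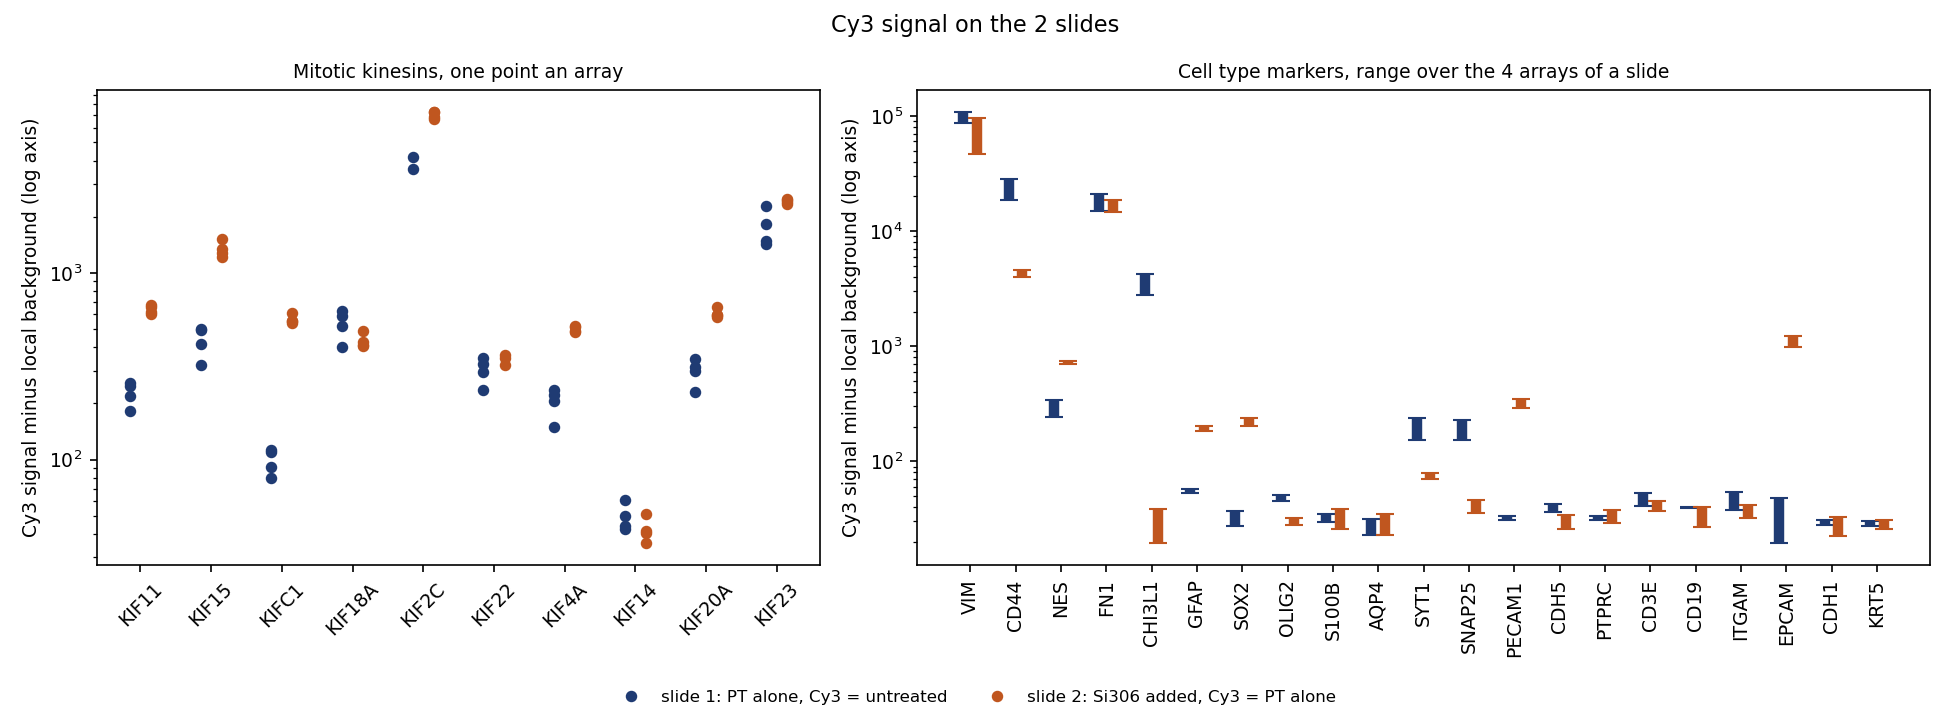
Cy3 signal minus local background (log axis) of the mitotic kinesins, 1 point for each array, and of cell type markers, as the range over the 4 arrays of a slide. The 4 arrays of slide 2 lie above those of slide 1 for KIFC1 and KIF20A, CHI3L1 lies at 19.4-38.4 on slide 2, and of the 21 markers EPCAM, SOX2 and PECAM1 are well above background on 4 of 4 arrays of slide 2 and on fewer of slide 1.

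Log2 ratios below are of Cy5 over Cy3 after loess normalization within each scan, so a negative value is a lower level in the treated cells than in their control. The direction of a kinesin was also read under 6 other scalings, each against the median of all genes under it. Without background correction, with a smaller offset, with the log ratio of the scanner software and with the series matrix, no kinesin changed direction in any configuration. Median centring in place of loess moved the median of all genes to 0.27, 0.23, 0.44 and 0.26 in the order U87 2 Gy, U87 10 Gy, then Si306 with 2 and with 10 Gy. A separate-channel model estimates a dye effect for each probe and does so through intensities compared between the slides. As the RNA on the slides was not alike, a direction that this model turned or kept cannot be told apart from the slide difference. Where median centring or the separate-channel model turned a direction is named with each result.

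**Figure D2:**
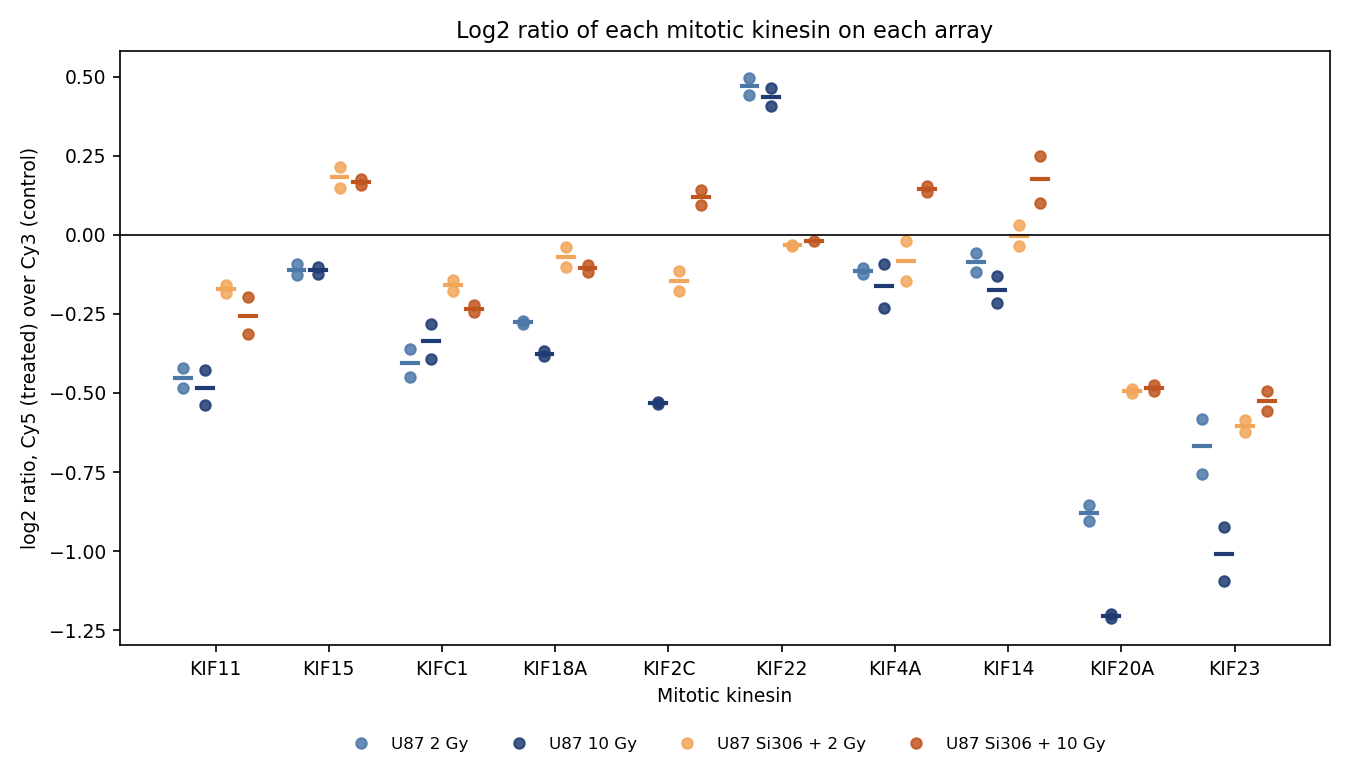
Log2 ratio (Cy5, treated, over Cy3, control) of each mitotic kinesin on each of the 8 arrays, with 2 points for a configuration. In both PT configurations KIF20A and KIF23 are the lowest and KIF22 alone is above 0 on all arrays, while with Si306 added KIF20A and KIF23 remain the lowest; the separate-channel model turned KIF20A and KIF23 in all 4 configurations.

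After PT alone, most mitotic kinesins were lower than in untreated cells. In U87 2 Gy, 7 of the 9 measured kinesins were down regulated and KIF22 was up regulated at an adjusted p under 0.05, without any reaching 2-fold. Of all genes tested, 57.2% passed this threshold, 25.0% in the lower and 32.2% in the higher direction, and 0.728% with a change of at least 2-fold. In U87 10 Gy, 9 of 10 were down regulated and KIF22 was up regulated, against 26.4% and 31.2% of all genes and 57.6% in both directions. There, KIF20A and KIF23 were down regulated by at least 2-fold, against 0.145% of all genes in this direction and 0.969% in either. The median log2 ratio of the kinesins was -0.28 at 2 Gy and -0.36 at 10 Gy, against 0.02 for all genes at each dose. With the probe that was brightest on the PT arrays standing for each gene, an alternative chosen after seeing the data, KIF11 was not called and 6 of 9 and 8 of 10 kinesins were lower, with medians of -0.11 and -0.26. These calls and medians hold for values after loess, since the separate-channel model turned 7 of the 8 kinesins it could fit (all but KIF18A) at both doses and median centring turned KIF15 relative to all genes. The turns of the separate-channel model cannot be told apart from the difference between the slides. In RNA of a whole culture, fewer cells in mitosis and less RNA in each cell cannot be told apart.

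Of the kinesins of the central spindle and cytokinesis, KIF20A and KIF23 had the lowest log2 ratios. KIF20A brings the chromosomal passenger complex to the central spindle at anaphase. Its log2 ratios were -0.90 and -0.85 on the U87 2 Gy arrays and -1.21 and -1.20 on the U87 10 Gy arrays, so the arrays of the doses did not overlap. The means were -0.88 (SE 0.03, adjusted p = 4.75e-09 in limma, n = 2 arrays), or 1.84-fold lower, and -1.21 (SE 0.03, adjusted p = 2.72e-10), or 2.31-fold lower. At 10 Gy it was the 8th lowest of all genes tested. KIF20A had 10 spots on each array, and the background-subtracted Cy3 signals were 313, 230, 345 and 297 on the 4 PT arrays. Relative to all genes, median centring gave -0.78 and -1.11 and the separate-channel model 1.31 and 1.08.

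KIF23 is the motor of centralspindlin, the complex that bundles midzone microtubules and recruits the activators of the cleavage furrow. It had log2 ratios of -0.58 and -0.76 at 2 Gy and of -1.09 and -0.92 at 10 Gy, again without overlap. The means were -0.67 (SE 0.05, adjusted p = 9.57e-07) and -1.01 (SE 0.05, adjusted p = 3.71e-08), or 1.59-fold and 2.01-fold lower, and both turned in the separate-channel model. The 2 Gy call was lost with median centring (-0.079, adjusted p = 0.203). The median of all genes was 0.27 under that scaling, so KIF23 stayed lower relative to all genes. KIF4A and KIF14, which bind the midzone bundler PRC1 and work at the midzone and midbody, had log2 ratios nearer 0 after loess. KIF14 was dim there, with signals over background of 37.6 to 60.7 over both dyes on the PT arrays, to which the offset of 50 was added. KIF4A was at -0.12 and -0.11, then -0.09 and -0.23, and was down regulated at both doses (means -0.11 and -0.16). KIF14 was at -0.06 and -0.12, then -0.21 and -0.13, and passed the test at 10 Gy (mean -0.17, adjusted p = 0.00441) but not at 2 Gy (mean -0.09, adjusted p = 0.10). KIF14 at 2 Gy passed under other processing, at -0.79 with the scanner log ratio and the series matrix (adjusted p = 0.00601 and 0.00604), -0.41 with median centring, -0.13 with the discordant scans as labelled, -0.11 without background correction and -0.08 with scans as replicates, while its 10 Gy value was -0.65 with the scanner log ratio. The separate-channel model turned both, and the KIF4A call at 2 Gy was lost without either array, without the filter and with the array as a random block (adjusted p = 0.0566 and 0.0539), as were the 10 Gy calls of KIF4A without array 2 and of KIF14 without array 1.

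Among the kinesins that set spindle bipolarity, KIF11 pushes the poles apart by sliding antiparallel microtubules, KIF15 can take over part of this work, and KIFC1 is a minus-end directed motor that bundles microtubules and focuses the poles. The KIF11 probe that stood for the gene gave -0.49 and -0.42 at 2 Gy and -0.43 and -0.54 at 10 Gy, with means of -0.45 (SE 0.04, adjusted p = 3.61e-06) and -0.48 (SE 0.04, adjusted p = 1.92e-06). Its 2 Gy call was lost with median centring (-0.097, adjusted p = 0.116). The median of all genes was 0.27 there, so this probe stayed lower relative to all genes. The other KIF11 probe, shown above, gave -0.04 and -0.07, then 0.05 and -0.08. It passed the test at neither dose (adjusted p = 0.255 and 0.786 over probes), so the 2 probes of this gene disagreed. KIFC1 was at -0.45 and -0.36 at 2 Gy and at -0.39 and -0.28 at 10 Gy, with means of -0.41 and -0.34 (SE 0.04 each). At 2 Gy its spot was marked as an outlier on 1 scan of each array. With the discordant scan left out too, the value of array 2 (-0.36) rests on 1 scan. KIF15 was at -0.13 and -0.09, then -0.10 and -0.12, a decrease of 0.11 on the log2 scale at each dose (adjusted p = 0.0132 and 0.0116). The separate-channel model turned the direction of all these genes and median centring that of KIF15, whose calls were lost without U87 2 Gy array 1 and without either U87 10 Gy array.

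KIF18A and KIF2C act on microtubule ends, KIF18A by damping plus ends as chromosomes align and KIF2C by taking tubulin off. KIF18A was at -0.27 and -0.28 at 2 Gy and at -0.38 and -0.37 at 10 Gy. Its means of -0.28 (SE 0.03, adjusted p = 2.52e-05) and -0.38 (SE 0.03, adjusted p = 2.12e-06) kept their direction relative to all genes under all 6 other scalings, at -0.04 and -0.17 with median centring and -0.08 and -0.17 in the separate-channel model. That model compares intensities between the slides, where KIF18A differed by a ratio of 0.943. KIF2C was at -0.53 on both U87 10 Gy arrays (adjusted p = 5.84e-07), a call that was lost with median centring (-0.012, adjusted p = 0.851). Under that scaling the median of all genes was 0.23, so the gene stayed lower relative to all genes. KIF2C had no value at 2 Gy because its spot was marked as an outlier on both arrays, and reading spots marked only for an uneven background gave -0.37 on 1 of them. KIF2C could not be fitted in the separate-channel model.

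KIF22, which binds DNA and pushes chromosome arms away from the poles, was the exception. Its log2 ratios were 0.50 and 0.44 at 2 Gy and 0.41 and 0.46 at 10 Gy, above 0 on 4 of 4 arrays. The means were 0.47 (SE 0.03, adjusted p = 1.68e-06) and 0.44 (SE 0.03, adjusted p = 2.40e-06), or 1.38-fold and 1.35-fold higher, with the same direction in all scalings that could be read. The separate-channel model could not be fitted for it, because 1 of its array values is missing.

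**Figure D3:**
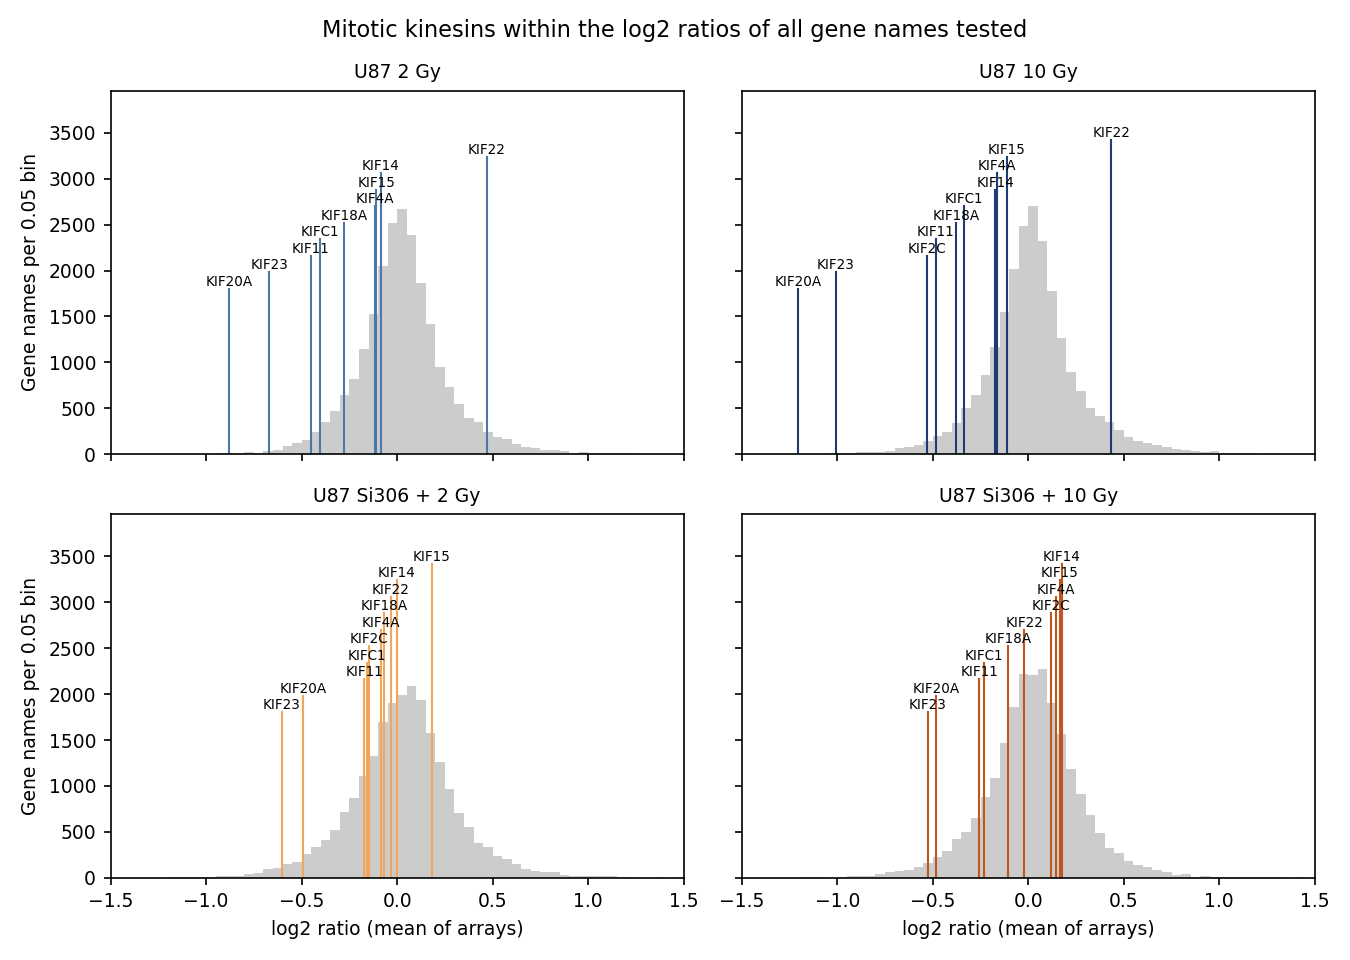
Number of gene names in each bin of 0.05 of the log2 ratio (mean of 2 arrays), for all gene names tested in each of the 4 configurations, with each mitotic kinesin marked. KIF20A and KIF23 stand at the low end of the 2 PT distributions (-1.21 and -1.01 at 10 Gy). With Si306 added, against PT alone, they lie at percentiles 1.77 to 3.36 of all genes. Both turned in the separate-channel model.

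Between the PT doses, 2 of the 9 kinesins differed, both lower at 10 Gy, against 21.1% of all genes, 11.2% in this direction. The difference in log2 ratio was -0.33 for KIF20A (SE 0.04, adjusted p = 0.000641) and -0.34 for KIF23 (SE 0.07, adjusted p = 0.00643). Every other kinesin missed the threshold after loess over arrays. For KIF18A the difference was -0.10 (95% interval -0.20 to -0.00033, adjusted p = 0.149), and it passed with the replicate block (-0.086, adjusted p = 0.00561) and with scans as replicates (-0.10, adjusted p = 0.00147), while KIF14 passed with the replicate block alone (-0.12). The difference was -0.03 for KIF11 (-0.16 to 0.10) and 0.07 for KIFC1 (-0.05 to 0.19). The U87 2 Gy and U87 10 Gy arrays compare with the same kind of untreated control. The KIF23 call was lost without U87 10 Gy array 1 (-0.25) and in the separate-channel model (-0.19, adjusted p = 0.164). The calls of KIF20A and KIF23 were both lost when the 2 discordant scans were taken as labelled (-0.11 and -0.16).

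**Figure D4:**
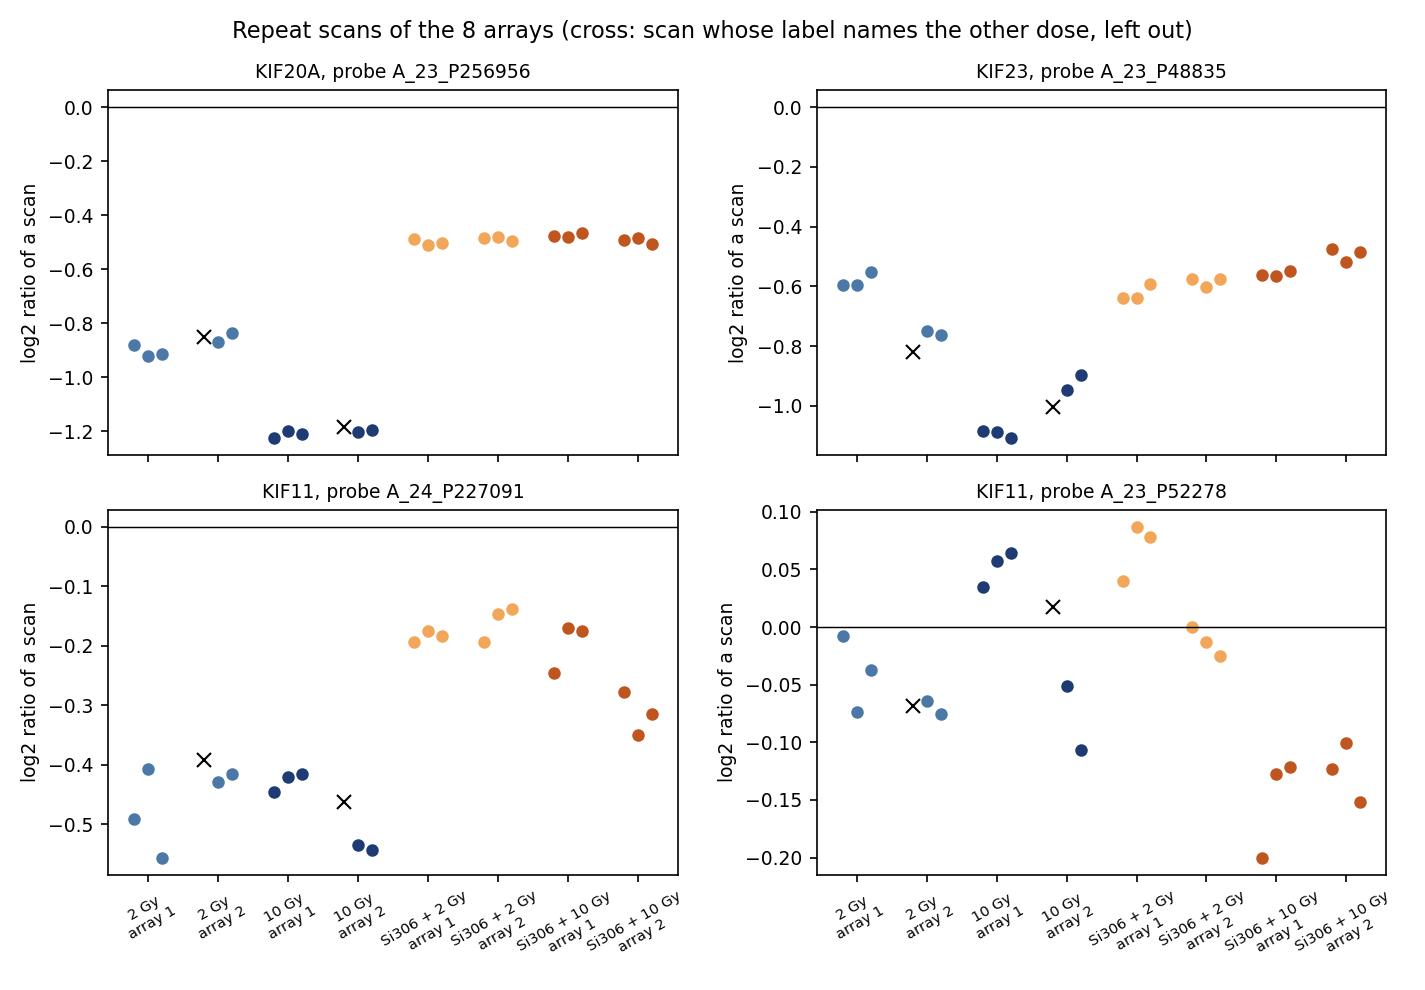
Log2 ratio of each of the 24 scans for kinesin probes, grouped by array, with a cross for the 2 scans whose label names the other dose. For KIF20A the cross on U87 10 Gy array 2 is at -1.18, beside scans at -1.20 and -1.19, and the cross on U87 2 Gy array 2 is at -0.85, beside scans at -0.84 and -0.87.

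With Si306 added, the kinesins were compared with cells given the same PT dose alone. In U87 Si306 + 2 Gy, 5 of 10 were down regulated (KIF11, KIF2C, KIF20A, KIF23 and KIFC1) and KIF15 was up regulated. Of all genes, 66.6% were called, 27.9% lower and 38.7% higher. In U87 Si306 + 10 Gy, 5 were down regulated (KIF11, KIF18A, KIF20A, KIF23 and KIFC1) and 4 up regulated (KIF2C, KIF4A, KIF14 and KIF15), against 62.5% of all genes, 27.2% lower and 35.3% higher. None reached 2-fold, as did 0.728% and 0.373% of all genes. The medians of the kinesins were -0.11 and -0.06, against 0.04 and 0.03 for all genes. Median centring turned 6 kinesins relative to all genes in U87 Si306 + 2 Gy (KIF11, KIF2C, KIF4A, KIF18A, KIF22 and KIFC1) and 5 in U87 Si306 + 10 Gy (KIF11, KIF14, KIF18A, KIF22 and KIFC1). The separate-channel model turned 7 of 8 (all but KIF15) and 5 of 8 (KIF11, KIF18A, KIF20A, KIF23 and KIFC1). With either U87 Si306 + 10 Gy array left out, 6 kinesins were called there, KIF4A and KIF18A being lost both times, KIF14 without array 1 and KIF2C without array 2, and the median was -0.12 without array 2.

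Of the central spindle motors, KIF23 was at -0.62 and -0.58 in U87 Si306 + 2 Gy and at -0.56 and -0.49 in U87 Si306 + 10 Gy. Its means were -0.60 (SE 0.05, adjusted p = 1.43e-06) and -0.53 (SE 0.05, adjusted p = 4.92e-06), or 1.52-fold and 1.44-fold lower. KIF20A was at -0.50 and -0.49, then -0.47 and -0.49, with means of -0.49 (SE 0.03, adjusted p = 2.17e-07) and -0.48 (SE 0.03, adjusted p = 3.26e-07). These genes were the lowest of the kinesins in both Si306 configurations, as after PT alone, and both turned in the separate-channel model. KIF4A was at -0.02 and -0.15 (mean -0.08, adjusted p = 0.0995), then 0.14 and 0.15 (mean 0.14, adjusted p = 0.0110). The 10 Gy call was lost with the scanner log ratio and the series matrix (0.11 each, adjusted p = 0.124 and 0.125) and with the scans as labelled (0.14, adjusted p = 0.0527), while the 2 Gy value passed with the first pair (-0.16 each, adjusted p = 0.0399 and 0.0403), with the GC curve (-0.11), with the replicate block and with scans as replicates (-0.084 each), and without array 1 (-0.15). KIF14 was at -0.04 and 0.03, then 0.25 and 0.10 (mean 0.18, adjusted p = 0.00381), a call that was lost with the scanner log ratio and the series matrix (0.22 each, adjusted p = 0.231) and with median centring (0.04). With median centring its value in U87 Si306 + 2 Gy passed in the lower direction (-0.36, adjusted p = 7.97e-07). Its control RNA was not well above background on both arrays of U87 Si306 + 2 Gy and on 1 of U87 Si306 + 10 Gy.

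The bipolarity motors split. KIF15 was at 0.15 and 0.21, then 0.16 and 0.18, above 0 on 4 of 4 arrays, with means of 0.18 (adjusted p = 0.000511) and 0.17 (adjusted p = 0.00102). It kept this direction under all 6 other scalings. For the separate-channel model this is no support, since it also put KIF15 at 1.71 and 1.69 in the PT configurations and compares intensities between the slides. KIFC1 was at -0.18 and -0.14, then -0.22 and -0.24, with means of -0.16 (adjusted p = 0.00305) and -0.23 (adjusted p = 0.000268), a direction that median centring and the separate-channel model turned. Its call in U87 Si306 + 2 Gy was lost without array 1 (-0.14, adjusted p = 0.054). KIF11 was at -0.18 and -0.16, then -0.20 and -0.31, on the probe that stood for the gene, with the same exceptions, and its U87 Si306 + 2 Gy call was lost with the mean of the gene's probes (-0.072, adjusted p = 0.0924). The other KIF11 probe was at 0.07 and -0.01, then -0.15 and -0.13, and passed the test in U87 Si306 + 10 Gy alone (adjusted p = 0.0101 over probes).

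Of the motors at microtubule ends, KIF2C was at -0.12 and -0.18 in U87 Si306 + 2 Gy (mean -0.15, adjusted p = 0.00348) and at 0.09 and 0.14 in U87 Si306 + 10 Gy (mean 0.12, adjusted p = 0.0121), so its arrays lay on opposite sides of 0. Median centring turned the former value relative to all genes, and its call was lost without array 2 (-0.12, adjusted p = 0.0702). KIF18A was at -0.10 and -0.04, then -0.12 and -0.10, and passed the test in U87 Si306 + 10 Gy alone (mean -0.11, adjusted p = 0.0136), with a direction that both median centring and the separate-channel model turned. That call was also lost with the scans as labelled (-0.11, adjusted p = 0.0619). The 2 Gy value, at a mean of -0.07, passed in the lower direction with offset 16 (-0.087, adjusted p = 0.0455), the scanner log ratio and the series matrix (-0.13 each, adjusted p = 0.0168 and 0.0169), the GC curve (-0.10, adjusted p = 0.0166), the stricter filter (-0.07, adjusted p = 0.0499), the array as a random block (-0.07, adjusted p = 0.0248), and the replicate block and scans as replicates (-0.07, adjusted p = 0.00025 and 0.000359). KIF22, higher after PT, was at -0.03 on both U87 Si306 + 2 Gy arrays (95% interval of the mean -0.11 to 0.04, adjusted p = 0.409). In U87 Si306 + 10 Gy it was at -0.02 on the 1 array with a value (interval -0.13 to 0.08), because its spot was marked as an outlier on all scans of the other. That value rests on 1 of the array's 3 scans, since the spot was marked on the remaining scans too.

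The Si306 configurations differed between the doses for 2 of 10 kinesins, both higher at 10 Gy, against 22.8% of all genes, 10.2% in this direction. KIF2C differed by 0.26 (SE 0.05, adjusted p = 0.00439) and KIF4A by 0.23 (SE 0.06, adjusted p = 0.0194). With median centring the same differences were -0.14 and -0.012, where all genes shifted by -0.13, and the KIF4A call was lost without U87 Si306 + 2 Gy array 2 (0.17, adjusted p = 0.13) and without either array of U87 Si306 + 10 Gy (0.24 and 0.22). It was lost too with offset 16 (0.25), the scanner log ratio and the series matrix (0.27 each) and the scans as labelled (0.23). KIF14, at 0.18 (95% interval 0.05 to 0.31), missed the threshold (adjusted p = 0.0532) but passed with the GC curve (0.19, adjusted p = 0.0465), the separate-channel model (0.19), the array as a random block (0.18, adjusted p = 0.0413), median centring (0.40), the replicate block and scans as replicates (0.17 each) and without U87 Si306 + 10 Gy array 2 (0.25). Of the other kinesins not called here, KIF11, KIF15, KIF18A, KIF20A, KIF23 and KIFC1 passed in the lower direction with median centring (-0.35, -0.34, -0.29, -0.25, -0.25 and -0.34), KIF11 also with the replicate block and scans as replicates (-0.084 each), and KIF23 in the higher direction with the replicate block (0.079). For KIF20A the difference was 0.01 (interval -0.09 to 0.11) and for KIF23 0.08 (interval -0.08 to 0.23). The lower levels of KIF20A and KIF23 with Si306 and their lower levels after PT alone were measured on different slides and were not tested against each other.

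The kinesins were set beside other genes of mitosis and other kinesins, by lists of current symbols matched to the array's names. The mitotic kinases and the chromosomal passenger complex, which steer the spindle and the motors on it, had all 12 genes tested. The shares of all genes called lower were 25.0%, 26.4%, 27.9% and 27.2% in the 4 configurations, and those higher 32.2%, 31.2%, 38.7% and 35.3%. In U87 2 Gy 9 were lower and 1 higher (median -0.30), in U87 10 Gy 9 lower and 0 higher (-0.48), in U87 Si306 + 2 Gy 9 lower and 0 higher (-0.30) and in U87 Si306 + 10 Gy 8 lower and 0 higher (-0.16). Median centring turned the median relative to all genes in the Si306 configurations and the separate-channel model in all 4. PLK1, the kinase that docks on KIF20A at the central spindle, was at -0.43, -0.74, -0.50 and -0.57 in the same order, all past the test after loess, and could not be fitted in the separate-channel model. Its U87 Si306 + 2 Gy value rests on 1 array (SE 0.049, against 0.034 in the other configurations). CCNB1, the cyclin of mitotic entry, was at -0.54 at 2 Gy and -0.78 at 10 Gy (adjusted p = 4.27e-08), both turned in the separate-channel model.

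Among 13 spindle and midzone partners of the kinesins, 7 were lower and 4 higher in U87 2 Gy (median -0.19), and 7 lower and 2 higher in U87 10 Gy (median -0.31), which the separate-channel model turned and, at 2 Gy, median centring too. ANLN, a scaffold of the contractile ring, was at -0.66 and -1.06, turned in the separate-channel model, and the spindle pole protein NUMA1 at 0.44 and 0.51, turned in none. With Si306 added, 8 and 5 were lower and 2 and 1 higher (medians -0.14 and -0.07), and both scalings turned the medians. The microtubule bundler NUSAP1 was lowest there, at -0.74 and -0.48, the latter turned in the separate-channel model.

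The 27 tested kinesins and light chains of transport and other work, which carry cargo or serve cilia, were called in both directions. In U87 2 Gy 6 were lower and 11 higher, or 22.2% and 40.7%, against 25.0% and 32.2% of all genes. In U87 10 Gy 9 and 12 (33.3% and 44.4%) were, against 26.4% and 31.2%. In U87 Si306 + 2 Gy the counts were 6 and 14 (22.2% and 51.9%, against 27.9% and 38.7%), and in U87 Si306 + 10 Gy 6 and 13 (22.2% and 48.1%, against 27.2% and 35.3%). The medians were 0.02, 0.06, 0.09 and 0.08, against 0.02, 0.02, 0.04 and 0.03 for all genes. Relative to all genes, median centring turned the first of them and the separate-channel model the others. After PT the extremes were KIF21A at -0.76 and -0.83 and the minus-end motor KIFC3 at 0.94 and 0.91. The separate-channel model turned KIFC3 and not KIF21A. Of the further kinesins of mitosis, 3 of the 6 listed were tested. CENPE, which carries chromosomes to the spindle equator, was at -0.42 and -0.61 after PT and at 0.10 and 0.06 with Si306. KIF20B was at -0.24 and -0.27, then 0.08 and 0.28, and KIF2A, at 0.05 and -0.05, did not pass the test after PT. The U87 2 Gy value of KIF2A rests on 1 array. With Si306 KIF2A was lower, at -0.17 (adjusted p = 0.00102) and -0.25 (adjusted p = 9.9e-05), values that median centring turned. The separate-channel model turned the PT values of CENPE and KIF20B.

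The factors that act on G2/M promoters through the CHR, the CCAAT box and E2F sites were also called in both directions. Of 15 tested, 5 were lower and 5 higher in U87 2 Gy (33.3% each, against 25.0% and 32.2% of all genes), and 7 and 5 in U87 10 Gy (46.7% and 33.3%, against 26.4% and 31.2%). In U87 Si306 + 2 Gy 6 and 3 were (40% and 20%, against 27.9% and 38.7%), and in U87 Si306 + 10 Gy 5 and 4 (33.3% and 26.7%, against 27.2% and 35.3%). FOXM1, an activator of G2/M genes, was at -0.20 and -0.43 after PT, the former turned by median centring, and MYBL2, which acts before it on many of the same genes, was at 0.39 and 0.44. CDKN1A, the p53 target that leads to repression through the CHR, was at 0.38 at 2 Gy and 1.19 at 10 Gy (adjusted p = 2.28e-10), and at 0.21 and 0.22 with Si306, with all 4 values turned in the separate-channel model. MDM2, the other p53 target listed, was at -0.21 at 2 Gy (adjusted p = 0.000938) and 0.10 at 10 Gy, and at 0.24 and 0.13 with Si306. The separate-channel model turned the last 3 of these and median centring both Si306 values.

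**Figure D5:**
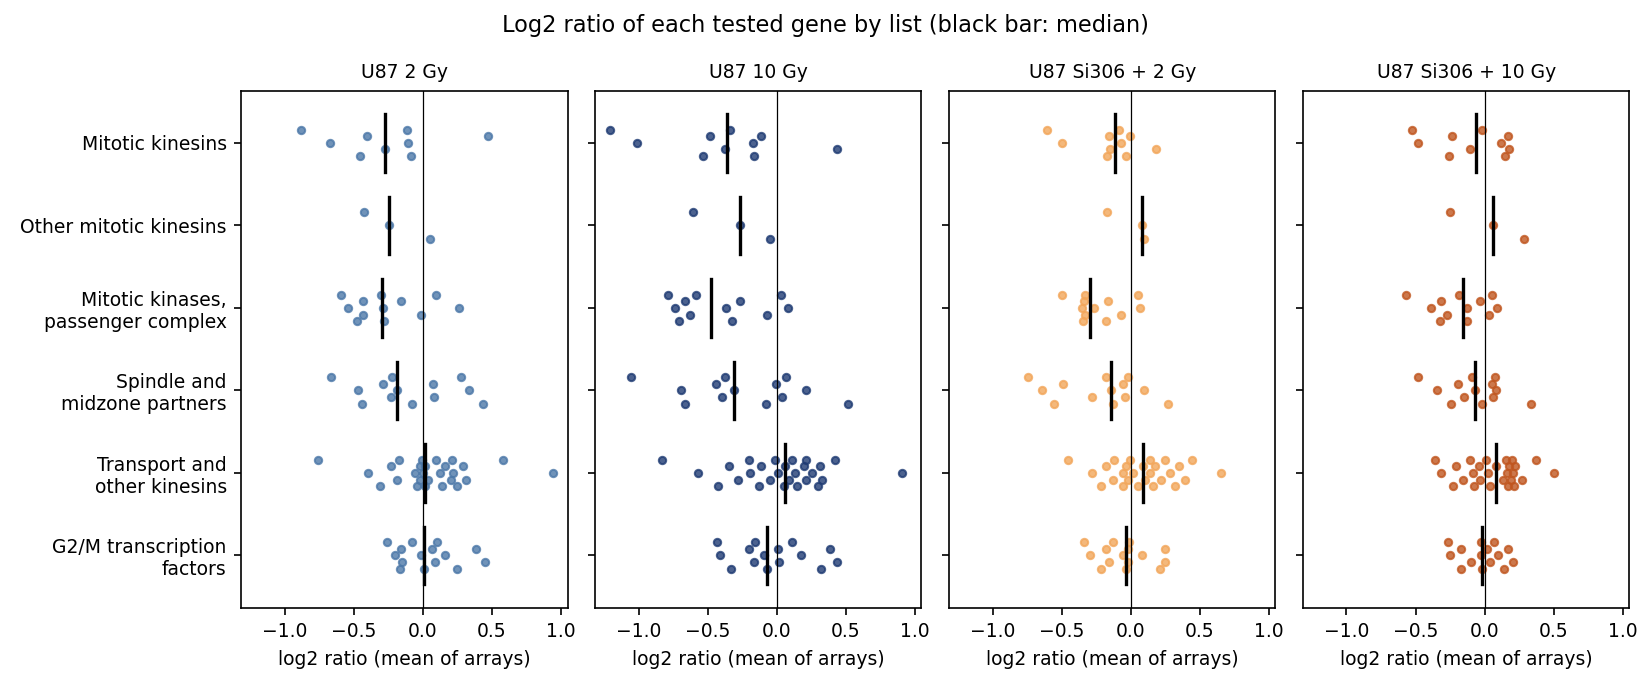
Log2 ratio (mean of arrays) of each tested gene by list in the 4 configurations, with a black bar at the median. Medians of the mitotic kinesins (-0.28 and -0.36) and of the mitotic kinases (-0.30 and -0.48) lie below 0 in U87 2 Gy and U87 10 Gy, while the transport kinesins spread on both sides; the separate-channel model turned the medians of the kinesins and the kinases in all 4 configurations.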

How the data were processed

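Per the labels, total RNA was amplified and labelled, and the authors scanned Agilent-014850 arrays with Feature Extraction 9.5.3.1. The deposited scanner tables give red and green mean signal intensity and a log10 ratio, background-corrected and dye-normalized by the software; the deposited series matrix holds that log10 ratio rounded. The intensities were used here. Spots marked as outliers (2.98% to 5.73% of a scan) and control spots were left out. Background correction (normexp, offset 50) was fitted on unmarked spots, followed by loess within each scan, the mean over spots of a probe and the mean over scans of an array. Probes well above background in either channel on both arrays of a configuration were kept (30265 of 41000), and the brightest stood for its gene. One limma 3.58.1 model (R 4.3.3, data.table version 1.17.8, statmod 1.5.0) covered 8 arrays (4 residual and 6.58 prior degrees of freedom), and p was adjusted by Benjamini-Hochberg over all genes (threshold 0.05). The design had foreseen labelled replicates or arrays, and arrays were used because the headers name them. All 10 kinesins were found among current gene symbols, as were 11226 of the 22812 tested names. The method was tested on simulated data. The kinesins and gene lists were chosen with earlier results of these data known. Named are all 10 kinesins, at most the 2 lowest and 2 highest genes of a list in a configuration, and the 5 genes most like the kinesins. PLK1, CCNB1, CENPE, KIF20B, KIF2A, FOXM1, MYBL2, CDKN1A and MDM2 also have values given outside the configurations where that rule names them. Alternatives were other background corrections and scalings, filters, uses of the scans, a GC curve, the mean of probes, and each array left out.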

Additional observations from a re-analysis of the deposited data

Results flagged for a closer look

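Of the kinesins, 4 differed between the doses by a test of the difference itself, 2 of 9 after PT alone and 2 of 10 with Si306, against 21.1% and 22.8% of all genes. After PT alone, KIF20A was lower at 10 Gy than at 2 Gy by -0.33 on the log2 scale (-1.21 at 10 Gy against -0.88 at 2 Gy) and KIF23 by -0.34 (-1.01 against -0.67). Both calls were lost with the discordant scans as labelled (-0.11 for KIF20A and -0.16 for KIF23), and that of KIF23 also without U87 10 Gy array 1 and in the separate-channel model. With Si306 added, KIF2C was higher at 10 Gy than at 2 Gy by 0.26 (0.12 at 10 Gy against -0.15 at 2 Gy) and KIF4A by 0.23 (0.14 against -0.08), and median centring gave -0.14 and -0.012 for these, with all genes shifted by -0.13. The KIF4A call was also lost without U87 Si306 + 2 Gy array 2, without either array of U87 Si306 + 10 Gy, and with offset 16, the scanner log ratio, the series matrix and the scans as labelled.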

How the results depend on the processing

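Over all alternatives, 1295 values of a kinesin in a comparison kept their side of the threshold, 37 of them with another sign while called by neither, 42 lost a call, 45 gained one, 7 of them with another sign, and 40 called values reversed. Without background correction, without the filter and with the array as a random block, every median and count stayed close to its value. The median of the kinesins in U87 2 Gy (-0.28) became -0.31 with offset 16, -0.63 with the scanner log ratio and with the series matrix, -0.079 with median centring, 1.29 in the separate-channel model, -0.41 with both channels above background on every array, -0.35 with scans taken as labelled, -0.29 with the replicate block, -0.25 with the mean of probes and -0.11 with the probe brightest on slide 1. In U87 10 Gy (-0.36) it became -0.43 with offset 16, -0.61 with the scanner log ratio and the series matrix, -0.087 with median centring, 1.16 in the separate-channel model, -0.29 with the mean of probes and -0.26 with the probe brightest on slide 1. In U87 Si306 + 2 Gy (-0.11) it became -0.16 with the scanner log ratio, the series matrix and the stricter filter, 0.63 with median centring, 1.51 in the separate-channel model, -0.14 with the GC curve, -0.078 with the mean of probes and -0.076 with the probe brightest on slide 1. In U87 Si306 + 10 Gy (-0.06) it became 0.33 with median centring, 1.66 in the separate-channel model and -0.23 with the stricter filter, and the dose difference with Si306 (0.01) became -0.25 with median centring. Median centring also moved the median of all genes, to 0.27, 0.23, 0.44 and 0.26 in the 4 configurations and to -0.13 for this difference. Its kinesin medians include that shift, and relative to all genes those after PT stayed lower. The PT dose difference called 1 kinesin in the separate-channel model, 0 with scans taken as labelled and 4 with the replicate block. That with Si306 called 1 with offset 16, the scanner log ratio, the series matrix, the stricter filter and scans as labelled, 7 with median centring, 5 with the replicate block and 4 with scans as replicates, an alternative chosen after seeing the data, as were each slide alone, the reading of spots with uneven background and the probe brightest on slide 1. U87 Si306 + 2 Gy called 10 with median centring. In the main fit 21.1% and 22.8% of all genes were called for the dose differences, without and with Si306, and 66.6% in U87 Si306 + 2 Gy. The share of all genes under each alternative is not given here, so these counts are not read as results about the kinesins. Same-numbered scans did not deviate together (30 pairs, r -0.0843 to 0.0867, 0 over 0.1), so the numbers do not pair the samples. Leaving out each array in turn, the medians ranged from -0.28 to -0.27, -0.39 to -0.32, -0.14 to -0.11 and -0.12 to -0.058 in the 4 configurations and from -0.09 to -0.05 (PT) and 0.0059 to 0.019 (Si306) for the doses. The calls ranged from 6 to 8, 8 to 10, 5 to 6 and 6 to 9, and from 1 to 2 for each dose difference.

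Reversed with median centring in U87 2 Gy were KIF15 (0.38), KIF18A (0.23) and KIF4A (0.24), in U87 10 Gy KIF15 (0.31), KIF18A (0.057) and KIF4A (0.16), in U87 Si306 + 2 Gy KIF11 (0.62), KIF20A (0.27), KIF23 (0.35), KIF2C (1.00) and KIFC1 (0.62), in U87 Si306 + 10 Gy KIF11 (0.27), KIF18A (0.38), KIF20A (0.023), KIF23 (0.096) and KIFC1 (0.28), and between the doses with Si306 KIF2C (-0.14) and KIF4A (-0.012), values that include the shift of all genes. Values without a call that gained one with another sign were, with median centring, KIF18A (0.67), KIF4A (0.67) and KIF22 (0.65) in U87 Si306 + 2 Gy, KIF22 (0.51) in U87 Si306 + 10 Gy, and KIF20A (-0.25) and KIF23 (-0.25) between the doses with Si306, and in the separate-channel model KIF4A (1.38) in U87 Si306 + 2 Gy. KIF11 in U87 Si306 + 2 Gy reversed to 0.028 with the probe brightest on slide 1. Reversed in the separate-channel model were, in U87 2 Gy and U87 10 Gy, KIF11 (1.54 and 1.53), KIF15 (1.71 and 1.69), KIF20A (1.23 and 1.00), KIF23 (0.67 and 0.48), KIF4A (1.35 and 1.32) and KIFC1 (2.46 and 2.50), in both Si306 configurations KIF11 (1.82 and 1.75), KIF20A (1.64 and 1.70), KIF23 (0.78 and 0.91) and KIFC1 (2.70 and 2.61), and at 10 Gy KIF18A (0.022). By construction this model reads the dye effect from intensities compared between the slides, where the kinesins differed by up to 5.94-fold. Among the kinesin values used, KIF14 alone was not well above background, in Cy3 on 3 arrays of the Si306 configurations. Its Cy3 signals over background were 35.6 to 50.9 on the Si306 arrays. On the PT arrays it passed that filter but was about as dim, at 37.6 to 60.7 over both dyes. The offset of 50 is of the size of these signals, so the size of its log2 ratio depends on the processing there too.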

Other observations

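The genes whose log2 ratios over the 8 arrays were most like the mean of the 8 kinesins measured on every array were NUP98 (Pearson r = 0.997), PRPS2, SH3BGR, ZCCHC7 and MAP1B (r = 0.996 each), out of 10392 genes compared. This is a description over arrays that form 4 pairs, and the likeness is one of shape, not of level. ZCCHC7 was at -0.27, -0.77, 0.71 and 0.83 in the order U87 2 Gy, U87 10 Gy, then Si306 with 2 and with 10 Gy, while NUP98 was at -0.37, -0.53, -0.0032 and 0.04. On slide 1, 651 tested genes were well above background in both dyes on all 4 arrays and on no array of slide 2 in either, and 557 genes the reverse.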
